A study of Mus musculus with 20 samples.

Results

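The matrix metalloproteinases are zinc-dependent proteases that cut collagens and other components of the extracellular matrix. Described here are 10 genes of this family, *Mmp2*, *Mmp3*, *Mmp9*, *Mmp10*, *Mmp11*, *Mmp12*, *Mmp13*, *Mmp14*, *Mmp19* and *Mmp23*, out of 51826 genes in a table of RNA-seq counts from cultured mouse renal myofibroblasts. They were taken by name, and all 10 were among the 20407 genes tested, with at least 5 counts in each of the 20 libraries. The question put to the data was how the transcripts of these proteases differ between wild-type (WT) cells and WWP2-/- cells. The deletion in the latter is in the gene of the ubiquitin ligase WWP2. A further question was whether TGFβ1, the growth factor that drives myofibroblast activation, changes these transcripts.

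Each of 4 groups held 5 libraries of poly-A RNA: untreated WT, WT with TGFβ1, untreated WWP2-/- and WWP2-/- with TGFβ1. All cells had a C57BL/6J background and grew out of minced kidney pieces, and passage 2 cells were used, so that any kidney cell able to leave the tissue and divide may be in a dish. WWP2-/- mice and WT littermates came from heterozygous breeding, so the deletion was present in every cell type of the dish and not in fibroblasts alone. The labels do not say whether libraries of 1 group came from separate animals, so the P values measure the spread between these libraries.

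Totals were between 47520759 and 73063697 counts per library, and 3 counts, the limit that a count of 0 allows, came to at most 0.0613 CPM (counts scaled to the size of the library). *Wwp2* was between 49.99 and 59.85 CPM in the WT libraries and between 17.03 and 22.73 CPM in the WWP2-/- libraries. The authors report that WWP2-/- cells lack the full-length and N isoforms of the protein. Counts per gene do not show which transcripts remain. The fibroblast marker list had no gene at 0 in any library, but some values were near the floor. *Lum* fell to 0.0148 CPM, below the limit given, and *Pdgfra* to 0.543 CPM, with highest values of 91.6 and 179.1 CPM. *Acta2*, the smooth muscle actin that defines myofibroblasts, was 38.9 CPM in untreated WWP2-/- replicate 3 and 50.5 CPM in WWP2-/- with TGFβ1 replicate 1, against 1016 to 3430 CPM elsewhere. *Xist*, the RNA by which females silence an X chromosome, was above 1 CPM in 4 of 5 libraries of each WT group, in 2 of 5 untreated WWP2-/- libraries and in 1 of 5 WWP2-/- libraries with TGFβ1. Genotype was therefore not balanced over the sex of the cells, and 5 of the 20 libraries had both *Xist* and Y-linked transcripts above 1 CPM. Genotype calls are therefore given also with *Xist* as a covariate and without the 2 libraries low in *Acta2*.

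Most matrix metalloproteinases are secreted as inactive proenzymes that are opened by plasmin, by other proteases or, for those with a furin site, on the way out of the cell. Tissue inhibitors of metalloproteinases (TIMPs) block them once active. In the kidney the family takes part both in clearing fibrotic matrix and in opening basement membranes, and macrophages as well as fibroblasts make several members. *Mmp13* encodes the main interstitial collagenase of the mouse, *Mmp3* and *Mmp10* the stromelysins, which cut proteoglycans and activate other proenzymes, and *Mmp2* and *Mmp9* the gelatinases. *Mmp14* encodes a membrane-anchored collagenase that activates the *Mmp2* product, *Mmp12* the macrophage elastase, and *Mmp11* a stromelysin that furin activates. *Mmp19* and *Mmp23* encode less studied members, of which the second is a membrane protein without the usual hemopexin domain.

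Of the 10 genes, 4 lie close together on chromosome 9 of GRCm38, all on the plus strand. These are *Mmp13* (7272514 to 7283331), *Mmp12* (7344381 to 7369499), *Mmp3* (7445822 to 7455975) and *Mmp10* (7502352 to 7510240). The others are on chromosome 2 (*Mmp9*, 164940780 to 164955850), chromosome 4 (*Mmp23*, 155650655 to 155653384), chromosome 8 (*Mmp2*, 92827291 to 92853420), chromosome 10 (*Mmp11*, 75923222 to 75936496, and *Mmp19*, 128790910 to 128800824) and chromosome 14 (*Mmp14*, 54431612 to 54445364). The RefSeq promoter table on GRCm38.p6 held 7 of the 10 genes, without *Mmp2*, *Mmp9* and *Mmp19*, with a pair of start sites for *Mmp12* and for *Mmp23*. The 250 bases before each start site were searched on both strands for the AP-1 motif TGANTCA, the RUNX motif AACCACA, the ETS motif AGGAAG and the TATA motif TATAAA, of which the AP-1 motif reads the same on both strands. AP-1, a dimer of FOS and JUN proteins, is the classical regulator of collagenase and stromelysin genes, which is why the windows of the chromosome 9 genes that hold its motif are shown, with AP-1 and TATA motifs in capitals.

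*Mmp13*, chr9:7272264-7272513, plus strand: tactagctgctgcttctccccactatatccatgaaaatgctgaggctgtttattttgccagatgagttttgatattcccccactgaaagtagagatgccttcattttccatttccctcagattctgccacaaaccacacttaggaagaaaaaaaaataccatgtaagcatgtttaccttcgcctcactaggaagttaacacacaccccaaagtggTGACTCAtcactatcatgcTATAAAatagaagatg
*Mmp12*, second start site, chr9:7347124-7347373, plus strand: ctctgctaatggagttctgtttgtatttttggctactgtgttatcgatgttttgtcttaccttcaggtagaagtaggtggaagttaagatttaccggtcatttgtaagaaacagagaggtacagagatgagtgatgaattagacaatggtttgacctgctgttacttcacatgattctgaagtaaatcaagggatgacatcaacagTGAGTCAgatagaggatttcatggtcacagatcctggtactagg
*Mmp3*, chr9:7445572-7445821, plus strand: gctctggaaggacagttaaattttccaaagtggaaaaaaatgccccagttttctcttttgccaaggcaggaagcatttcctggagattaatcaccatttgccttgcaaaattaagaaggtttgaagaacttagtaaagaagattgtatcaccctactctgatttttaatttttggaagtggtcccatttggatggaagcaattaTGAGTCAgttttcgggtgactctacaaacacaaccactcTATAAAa
*Mmp10*, chr9:7502092-7502341, plus strand: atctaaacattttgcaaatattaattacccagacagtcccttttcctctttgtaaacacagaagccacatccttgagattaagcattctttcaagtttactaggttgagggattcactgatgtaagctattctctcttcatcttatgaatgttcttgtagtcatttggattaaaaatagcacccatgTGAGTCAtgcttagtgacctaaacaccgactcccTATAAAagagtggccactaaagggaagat

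The AP-1 motif was in 1 window of each of these 4 genes, at -35 to -29 (TGACTCA) in *Mmp13*, at -46 to -40 (TGAGTCA) in *Mmp3*, at -63 to -57 (TGAGTCA) in *Mmp10* and at -44 to -38 (TGAGTCA) before the second start of *Mmp12*, counted back from the annotated start. Of all 32817 windows in the table, 6.75% held it. It was not found in the windows of *Mmp11*, *Mmp14* and *Mmp23*. The TATA motif was present in *Mmp13*, *Mmp3* and *Mmp10* and in 12.4% of all windows, whereas the RUNX motif was found in *Mmp13* alone among the members, at -119 to -113, and in 4.39% of all windows. The ETS motif, in 29.5% of all windows, was found in *Mmp13*, *Mmp3*, *Mmp12* and *Mmp14*. These letters describe the windows and do not show that a factor binds there.

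Per kilobase of exon, the gelatinase *Mmp2* and its activator *Mmp14* were the most abundant members in each of the 4 groups. In untreated WT cells *Mmp2* was at 249.8±91.6 CPM per kilobase (mean±SD, n = 5), *Mmp14* at 172.5±69.4 and *Mmp11* at 129.9±98.2, followed in descending order by *Mmp23* (46.1±26.2), *Mmp12* (31.4±28.5), *Mmp3* (14.3±9.95), *Mmp19* (8.93±2.04), *Mmp13* (3.52±2.20), *Mmp10* (1.09±0.826) and *Mmp9* (0.197±0.235). Each neighbouring pair in this order overlapped between libraries. With TGFβ1, *Mmp2* (354.8±88.3) was above *Mmp14* (196.3±72.9) without overlap in WT cells, as was *Mmp10* (1.36±0.726) above *Mmp9* (0.139±0.0815), and the other neighbours overlapped. *Mmp11*, in the third place in both WT groups, was in the sixth place in untreated WWP2-/- cells (19.2±7.72) and in the eighth place with TGFβ1 (16.8±6.74). In this last group it stood above *Mmp19* (6.96±2.72) without overlap, and again the other neighbours overlapped. These places go by means, which the library low in *Acta2* in each WWP2-/- group raised for *Mmp3*, *Mmp13* and *Mmp10*. In treated WWP2-/- cells, mean and median were 148.5 and 1.75 CPM for *Mmp3*, 141.7 and 24.4 for *Mmp13*, and 29.4 and 3.79 for *Mmp10*. For *Mmp11* they were 46.6 and 38.9 CPM, so its fall in place is partly set by that library. *Mmp2* and *Mmp14* together made up between 16.2% and 92.9% of the summed level per kilobase of the 10 genes (median 66.8%), so that the makeup of the family varied widely between libraries.

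With TGFβ1, 3 of the 10 genes differed between WWP2-/- and WT cells by edgeR's quasi-likelihood test at an adjusted *P* of 0.05: *Mmp9* was higher, and *Mmp11* and *Mmp23* were lower. Of all 20407 genes tested, 6.07% passed in this comparison, 2.1% higher and 3.96% lower. In untreated cells only *Mmp11* passed, again lower, where 0.725% of all genes passed and 0.622% were lower. The median log2 fold change of the 10 genes was 0.21 with TGFβ1 and -0.50 untreated, beside 0.05 and 0.08 over all genes tested. The 3 genes called with TGFβ1 were also the 3 members whose libraries did not overlap between the genotypes, as was the case for 5.67% of all genes. The Wald test of DESeq2 called 6 members with TGFβ1, beside 13.1% of all genes, and 2 members untreated, beside 3.64%.

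**Figure D1:**
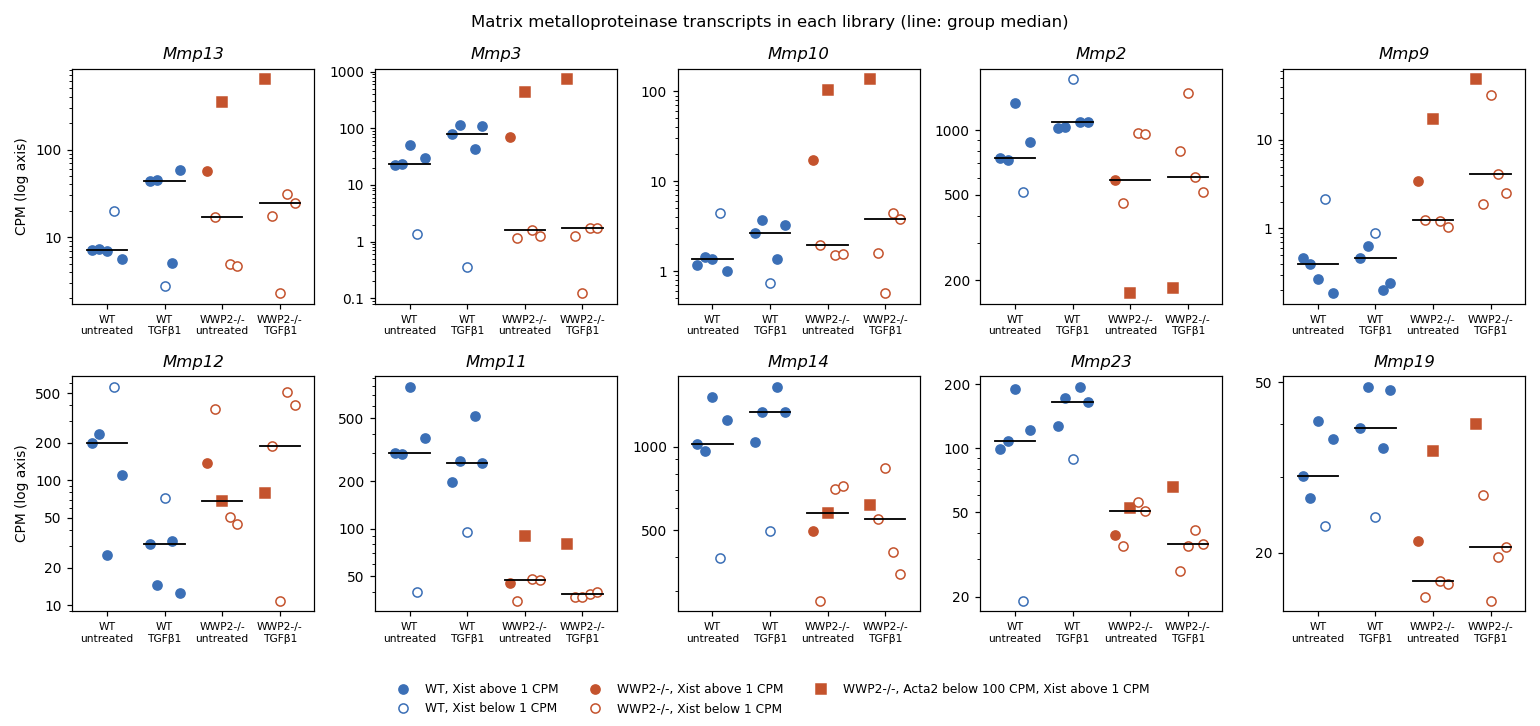
Level of each of the 10 genes in CPM on a log axis in the 20 libraries, by group, with the group median as a line, filled symbols for libraries with *Xist* above 1 CPM and squares for the 2 WWP2-/- libraries with *Acta2* below 100 CPM. *Mmp11* and *Mmp23* are lower in all 5 WWP2-/- libraries with TGFβ1 than in the 5 WT libraries, *Mmp9* is higher, and the squares hold the highest values of *Mmp3*, *Mmp10* and *Mmp13*.

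*Mmp9*, the gelatinase of inflammatory and bone-resorbing cells, was rare in WT cells. Treated WT libraries held 0.464, 0.641, 0.898, 0.202 and 0.245 CPM in the order of their replicate numbers, and treated WWP2-/- libraries held 48.3, 1.88, 32.4, 4.12 and 2.49 CPM. All 5 WWP2-/- values lay above the highest WT value, and replicates 1 and 3 stood far above the other 3. The log2 fold change was 5.18 (SE 1.15, adjusted *P* = 0.0158).

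Untreated, *Mmp9* was at 0.460, 0.402, 0.266, 2.17 and 0.185 CPM in WT libraries and at 3.43, 1.25, 17.3, 1.21 and 1.05 CPM in WWP2-/- libraries. WT replicate 4 lay within the WWP2-/- range, and the difference did not pass (log2 fold change 2.78, SE 1.03, adjusted *P* = 0.229). Leaving out the 2 WWP2-/- libraries low in *Acta2*, among which were the highest values of both WWP2-/- groups, gave 4.39 with TGFβ1 (adjusted *P* = 0.0101). With *Xist* as a covariate the value was 5.32 (adjusted *P* = 0.0308). Markers of neutrophils, a known source of this enzyme, summed to at most 1.68 CPM in any library, with *S100a9* at 0 in all 20 and *S100a8* at 1.40 CPM in treated WWP2-/- replicate 1, and osteoclast markers summed to between 1.66 and 17.8 CPM.

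*Mmp11* was lower in WWP2-/- cells under both conditions. Treated WT libraries held 196.2, 269.3, 94.9, 518.8 and 260.5 CPM, and treated WWP2-/- libraries 80.0, 37.0, 37.0, 38.9 and 40.0 CPM. Replicate 3 of the WT group was the lowest of its group and still above all 5 WWP2-/- libraries. The log2 fold change was -2.52 (SE 0.553, adjusted *P* = 0.0147).

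In untreated cells the *Mmp11* values were 300.3, 294.9, 792.5, 40.1 and 377.2 CPM for WT and 45.2, 35.2, 90.5, 48.2 and 47.6 CPM for WWP2-/-. WT replicate 4 lay inside the WWP2-/- range, and the other 4 WT libraries were all above it. The log2 fold change was -2.76 (SE 0.558, adjusted *P* = 0.0313), and it passed without WT replicate 4 or WWP2-/- replicate 3 but not when any other library of this comparison was left out (adjusted *P* between 0.0574 and 0.119). The loss was not particular to *Mmp11*: those other omissions left between 1 and 69 of 20407 genes called, against 148 with all libraries. Without WT replicate 4 and without WWP2-/- replicate 3, 744 and 55 genes were called. Of its exon bases, 5.58% overlap *Chchd10* on the opposite strand, and the strand setting of the counting is not given in the sources used here.

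*Mmp23* was at 126.9, 171.8, 88.8, 195.6 and 165.5 CPM in WT cells with TGFβ1 and at 66.1, 26.5, 34.5, 41.4 and 35.6 CPM in WWP2-/- cells with TGFβ1. The groups did not overlap, and WT replicate 3 was again the lowest of its group. The log2 fold change was -1.88 (SE 0.399, adjusted *P* = 0.0138). Without TGFβ1, WT libraries held 98.9, 108.1, 190.9, 19.2 and 122.1 CPM and WWP2-/- libraries 39.2, 34.6, 52.1, 55.6 and 50.7 CPM, so that WT replicate 4 was the lowest of all 10. This difference did not pass (-1.22, SE 0.391, adjusted *P* = 0.164), and it passed once WT replicate 4 was left out. That omission raised the genes called from 148 to 744.

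**Figure D2:**
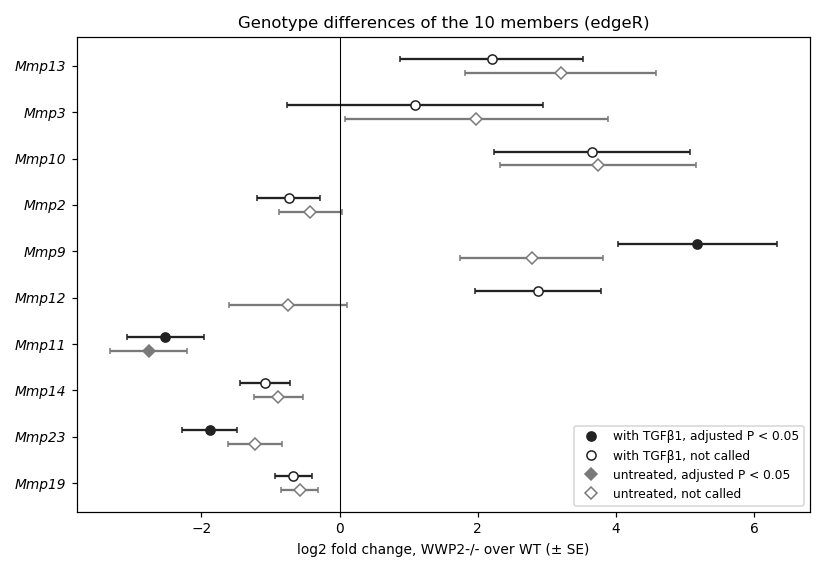
Log2 fold change of WWP2-/- over WT cells with its SE for the 10 genes, with TGFβ1 (circles) and untreated (diamonds), filled where the adjusted *P* was below 0.05. *Mmp9* at 5.18, *Mmp11* at -2.52 and *Mmp23* at -1.88 are filled with TGFβ1, and *Mmp11* at -2.76 is filled in untreated cells.

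The membrane collagenase *Mmp14* was at 1038, 1331, 497.3, 1651 and 1333 CPM in treated WT libraries and at 618.1, 549.5, 838.6, 415.4 and 346.2 CPM in treated WWP2-/- libraries. WT replicate 3 lay within the WWP2-/- range, and the other 4 WT libraries were above it. The difference did not pass with TGFβ1 (log2 fold change -1.08, SE 0.358, adjusted *P* = 0.0755) or untreated (-0.89, SE 0.357, adjusted *P* = 0.262). *Mmp19* gave -0.67 (SE 0.269, adjusted *P* = 0.134) with TGFβ1 and -0.58 (adjusted *P* = 0.324) untreated, with group means between 21.2 and 39.1 CPM. Its exons overlap *Tmem198b* and *Gm47093* on the other strand over 28.3% of their bases, so part of its counts may belong to these genes. For *Mmp2*, the most abundant member, the values were -0.73 (SE 0.454, adjusted *P* = 0.331) with TGFβ1 and -0.42 (adjusted *P* = 0.683) untreated.

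Of the 10 genes, *Mmp3* alone was separated by *Xist* class in both genotypes. It was between 23.0 and 737.7 CPM in the 11 libraries with *Xist* and between 0.121 and 1.76 CPM in the 9 libraries without it, with no overlap, and this held for the 10 WT and the 10 WWP2-/- libraries alike. Both WT libraries without *Xist*, untreated replicate 4 and TGFβ1 replicate 3, had 1.34 and 0.359 CPM, whereas the 8 other WT libraries had at least 23.0 CPM. In WWP2-/- cells the 3 libraries with *Xist* had 69.2, 435.2 and 737.7 CPM and the 7 others at most 1.76 CPM. In WT cells *Mmp11*, *Mmp14*, *Mmp19* and *Mmp23* were also higher and *Mmp9* lower with *Xist* without overlap, as 28.6% of all genes did not overlap in this split of 8 against 2 libraries, but all 5 overlapped between the classes in WWP2-/- cells. There *Mmp10* and *Mmp13* were higher with *Xist* without overlap, where 11.4% of all genes did not overlap, and both overlapped in WT cells. These classes were set by *Xist* and are not groups of the study, so no test was made between them. The share of all genes separated in both genotypes was not counted. Some fibroblast markers were separated by class in both genotypes as well. *Pdgfra* was at least 14.4 CPM with *Xist* and at most 1.87 CPM without it. *Dcn* was at least 201.2 against at most 52.1 CPM, and *Lum* at least 0.740 against at most 0.202 CPM. *Col3a1* was separated in both genotypes in opposite directions. In WT libraries it was at least 2358 CPM with *Xist* against at most 377.9 CPM without it. In WWP2-/- libraries it was at most 488.5 CPM with *Xist* against at least 496.2 CPM. *Col1a1* and *Col1a2* were higher with *Xist* without overlap in WT cells and overlapped in WWP2-/- cells. The other markers of that list overlapped in both genotypes.

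Among libraries with *Xist*, *Mmp11* was between 196.2 and 792.5 CPM in 8 WT libraries and between 45.2 and 90.5 CPM in 3 WWP2-/- libraries. *Mmp14* was between 966.3 and 1651 CPM against 495.6 and 618.1 CPM in the same libraries, and *Mmp23* between 98.9 and 195.6 CPM against 39.2 and 66.1 CPM. *Mmp2* was also lower in WWP2-/- libraries of this class, and *Mmp9* and *Mmp10* were higher, so that 6 of the 10 members did not overlap between genotypes, as was the case for 20.3% of all genes. Of the 3 WWP2-/- libraries of this class, 2 are those low in *Acta2*. The third, untreated replicate 1, had 33.7 CPM of *Xist*, against at least 107.9 CPM in the 8 WT libraries. Its Y-linked transcripts were at 208.7 CPM, against at most 88.5 CPM in these WT libraries and 204.4 to 296.3 CPM in libraries without *Xist*. The class therefore does not match the genotypes for sex or culture state. Without *Xist*, *Mmp11* was 40.1 and 94.9 CPM in the 2 WT libraries and between 35.2 and 48.2 CPM in the 7 WWP2-/- libraries, and *Mmp14* was 394.8 and 497.3 CPM against 277.7 to 838.6 CPM. Genotypes overlapped there for both genes and for *Mmp23*, which was 19.2 and 88.8 CPM against 26.5 to 55.6 CPM, and 0 of the 10 members were separate, beside 3.91% of all genes.

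With *Xist* entered as a covariate on the log2 scale, 1 of the 10 genes passed with TGFβ1, *Mmp9*, where 2.67% of all genes passed. *Mmp11* then gave -1.51 (adjusted *P* = 0.0814) and *Mmp23* -1.30 (adjusted *P* = 0.0634). In untreated cells no member passed, at a background of 0.412%, and *Mmp11* gave -1.86 (adjusted *P* = 0.0787). The covariate brought the SE of *Mmp3* with TGFβ1 from 1.85 to 0.589, and its log2 fold change was 2.15 (adjusted *P* = 0.0549). For *Mmp9*, *Mmp11* and *Mmp23* the *Xist* class cannot be told apart in full from genotype by these libraries. This class goes with sex and with some fibroblast markers. With TGFβ1, 1 WWP2-/- library had *Xist* and 1 WT library lacked it. Without *Xist*, *Mmp9* was 0.898 CPM in this WT library against 1.88 to 32.4 CPM in 4 treated WWP2-/- libraries. Untreated libraries without *Xist* had 2.17 CPM of *Mmp9* in 1 WT library against 1.05 to 1.25 CPM in 3 WWP2-/- libraries.

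**Figure D3:**
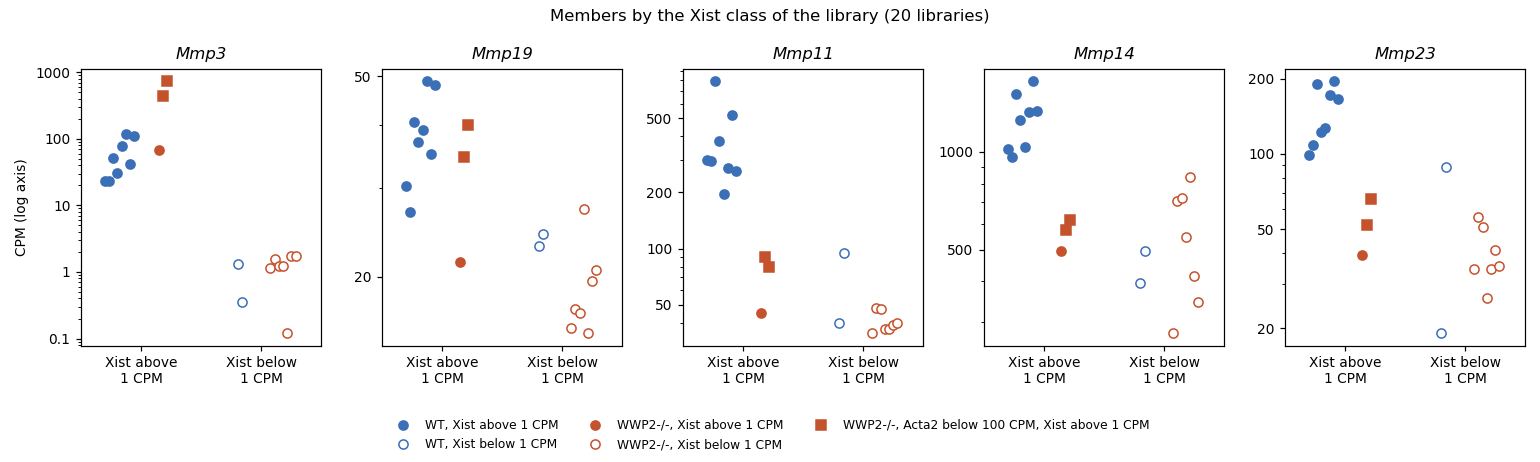
Levels of 5 members in CPM on a log axis in the 11 libraries with *Xist* above 1 CPM and the 9 libraries below, WT in blue and WWP2-/- in orange, with squares for the 2 libraries low in *Acta2*. *Mmp3* is at 23.0 CPM or more on the left and at 1.76 CPM or less on the right, and for *Mmp11*, *Mmp14* and *Mmp23* WT exceeds WWP2-/- on the left, while the genotypes overlap on the right.

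The stromelysins and the collagenase of the chromosome 9 cluster had their highest values in the 2 WWP2-/- libraries low in *Acta2*. *Mmp13* was at 44.1, 44.7, 2.79, 5.13 and 57.8 CPM in treated WT libraries and at 633.7, 17.5, 2.28, 30.9 and 24.4 CPM in treated WWP2-/- libraries. In untreated cells it was at 7.21, 7.39, 6.97, 19.9 and 5.56 CPM for WT and at 56.5, 16.8, 348.8, 4.92 and 4.73 CPM for WWP2-/-. The groups overlapped in both comparisons, and neither passed (2.20, SE 1.33, adjusted *P* = 0.319, and 3.20, SE 1.38, adjusted *P* = 0.294).

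*Mmp10* was at 2.66, 3.67, 0.738, 1.37 and 3.29 CPM in treated WT libraries and at 136.6, 1.60, 0.565, 4.44 and 3.79 CPM in treated WWP2-/- libraries. Apart from replicate 1, the WWP2-/- libraries lay close to those of WT, and the difference did not pass (3.65, SE 1.42, adjusted *P* = 0.123). Without the 2 libraries low in *Acta2*, the log2 fold change was 0.14 (adjusted *P* = 0.921). Untreated, WT libraries held between 1.02 and 4.41 CPM and WWP2-/- libraries 17.1, 1.95, 103.7, 1.53 and 1.56 CPM (3.74, SE 1.42, adjusted *P* = 0.239).

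*Mmp3* was at 78.1, 116.8, 0.359, 42.6 and 109.8 CPM in treated WT libraries and at 737.7, 1.25, 0.121, 1.76 and 1.75 CPM in treated WWP2-/- libraries. Replicate 1 alone set the direction of its difference: the log2 fold change was 1.09 (SE 1.85, adjusted *P* = 0.768) with it and -5.82 (adjusted *P* = 0.0558) without it. When untreated WWP2-/- replicate 3 was left out as well, *Mmp3* was lower in WWP2-/- cells (-5.82, adjusted *P* = 0.0261). The 4 treated WWP2-/- libraries that remained had no *Xist*, and 4 of the 5 treated WT libraries had it. In untreated cells the values were 23.0, 23.3, 51.3, 1.34 and 30.2 CPM for WT and 69.2, 1.15, 435.2, 1.59 and 1.23 CPM for WWP2-/- (1.98, SE 1.90, adjusted *P* = 0.648).

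Leaving out both libraries gave 6 members called with TGFβ1, *Mmp9* and *Mmp12* higher and *Mmp3*, *Mmp11*, *Mmp19* and *Mmp23* lower, at a background of 16.9% of all genes, and 1 member untreated, *Mmp11*, at a background of 1.32%. In the same fit with TGFβ1, 11 of 12 macrophage markers were called higher (median log2 fold change 2.83) and 6 of 10 fibroblast markers lower (median -2.10), and their part in the results for *Mmp12* and the other members was not tested. *Mmp2* ran the other way in these 2 libraries, at 174.1 and 184.8 CPM against at least 457.6 CPM in the 18 others. *Mmp1b*, a mouse relative of interstitial collagenase, and the neutrophil collagenase *Mmp8* were also highest there, *Mmp8* at 9.48 and 16.0 CPM and *Mmp1b* at 1.33 and 1.82 CPM. Of the AP-1 genes, *Fosl1* was 160.9 and 139.1 CPM in the same libraries against at most 52.8 CPM elsewhere. *Fosb* (7.29 and 6.28 against at most 4.18 CPM) and *Fosl2* (430.1 and 433.3 against at most 391.4 CPM) were also highest there. *Fos* was 6.99 and 6.05 CPM against 6.19 to 46.1 CPM, and *Jun*, at 126.5 and 123.5 CPM, lay within the 114.2 to 152.4 CPM of the 8 other WWP2-/- libraries. *Junb* was 237.2 and 239.5 CPM against at most 238.0 CPM, and *Jund* 103.6 and 103.1 against 87.1 to 207.3 CPM. Of the fibroblast markers, *Dcn*, which encodes the proteoglycan decorin, was higher there (1147 and 1452 CPM) than in any other library (at most 1067 CPM). *Vim*, which encodes vimentin, was lower (985.3 and 1113 against at least 2202 CPM), as was *Tagln* (1.03 and 1.52 against at least 7.28 CPM). *Col1a1* (703.0 and 889.3 CPM) and *Col3a1* (85.6 and 131.9 CPM) were below the 8 other WWP2-/- libraries (at least 1131 and 488.5 CPM). *Pdgfra* (93.4 and 105.4 CPM) and *Lum* (4.99 and 5.86 CPM) were above these 8 (at most 14.4 and 0.740 CPM). *Col1a2* and *Pdgfrb* lay within their range. The 9 fibroblast markers other than *Acta2* summed to 4279 and 5254 CPM in the 2 libraries low in *Acta2*. Their sum was between 5276 and 13240 CPM in the 8 other WWP2-/- libraries and between 4656 and 33900 CPM over all 18 others. What part the state of these cultures has in the results was not tested.

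**Figure D4:**
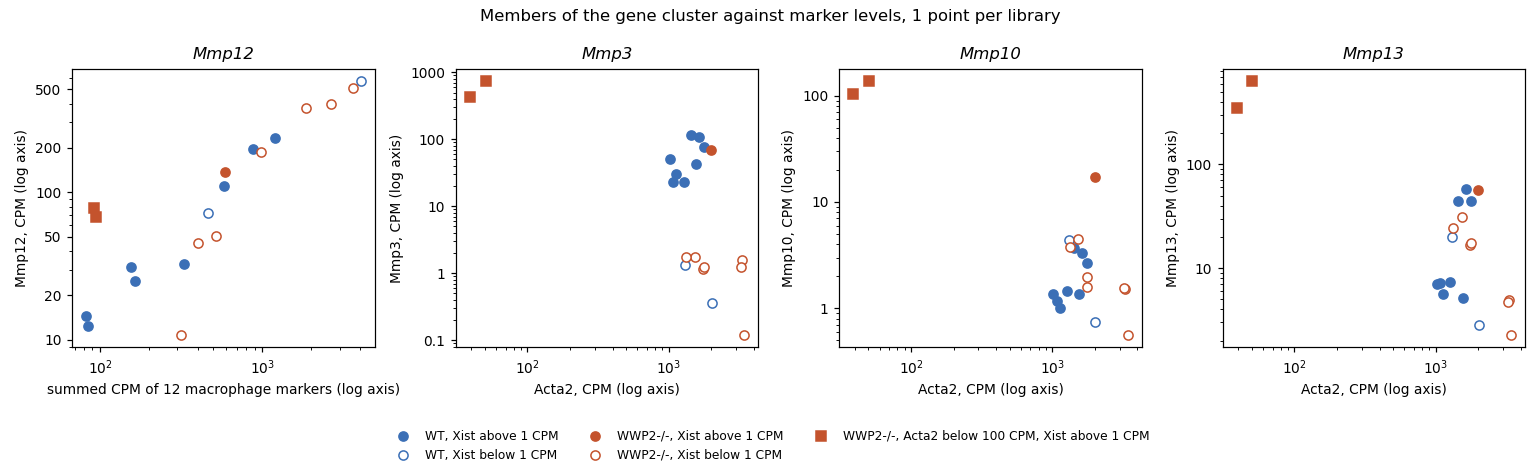
The 4 genes of the chromosome 9 cluster, 1 point per library on log axes, with *Mmp12* against the summed CPM of 12 macrophage markers and *Mmp3*, *Mmp10* and *Mmp13* against *Acta2*. *Mmp12* reaches 566.2 CPM where the macrophage markers sum to 4066 CPM, and the 2 squares at 38.9 and 50.5 CPM of *Acta2* hold the highest values of the other 3 genes.

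*Mmp12*, the macrophage elastase, followed the macrophage markers. Treated WT libraries held 31.0, 14.4, 72.2, 32.9 and 12.5 CPM and treated WWP2-/- libraries 78.7, 188.8, 10.9, 510.6 and 399.8 CPM. Replicate 3 was the lowest of the 10, and the 4 other WWP2-/- libraries lay above all WT libraries. The difference did not pass (2.87, SE 0.913, adjusted *P* = 0.0665). Of the exon bases of *Mmp12*, 2.17% overlap *Mmp1b* on the opposite strand.

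All 12 macrophage markers were present in each of the 20 libraries, and their sum was between 82.2 and 462.6 CPM in treated WT libraries and between 92.4 and 3642 CPM in treated WWP2-/- libraries. Untreated, it was between 164.2 and 4066 CPM in WT and between 94.8 and 1859 CPM in WWP2-/- libraries. The 5 libraries with the highest sums, from 1195 to 4066 CPM, were in the same order as the 5 with the highest *Mmp12*, from 234.9 to 566.2 CPM. In the 18 libraries with *Acta2* above 100 CPM, *Mmp12* was between 3.45 and 23.3 CPM per 100 CPM of these markers, and in the 2 libraries low in *Acta2* it was 72.0 and 85.1. None of the 12 markers passed with TGFβ1 by edgeR, with a median log2 fold change of 2.56, or untreated, with -0.84. With TGFβ1, 11 of the 12 were higher by the Wald test of DESeq2 and without the 2 libraries low in *Acta2*, the settings in which *Mmp12* was called as well, and none passed with *Xist* as a covariate, with a median of 0.90. In RNA from whole dishes, fewer macrophages and less *Mmp12* per macrophage cannot be told apart. Untreated, *Mmp12* did not pass (-0.75, SE 0.856, adjusted *P* = 0.707), at 198.0, 234.9, 25.1, 566.2 and 110.4 CPM in WT and 137.7, 374.6, 68.3, 50.9 and 45.1 CPM in WWP2-/- libraries.

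TGFβ1 moved no member past the threshold in either genotype. By edgeR's quasi-likelihood test 0 of the 10 genes passed in WT cells, where 0% of all genes passed, and 0 in WWP2-/- cells, again with 0% of all genes. At an unadjusted *P* under 0.05, 1 member (*Mmp12*) and 1397 genes were counted in WT cells and 0 members and 713 genes in WWP2-/- cells, and the Wald test of DESeq2 called 27 and 49 genes with no member among them. *Mmp12* had the lowest adjusted *P* in WT cells (log2 fold change -2.80, SE 0.911, adjusted *P* = 0.641), with a mean of 226.9±206.4 CPM untreated and 32.6±24.0 CPM with TGFβ1 (n = 5). In WWP2-/- cells it gave 0.81 (SE 0.857, adjusted *P* = 1), with 135.3±138.8 and 237.8±212.1 CPM. These comparisons share their libraries with the genotype comparisons.

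For the other members in WT cells, the log2 fold change with TGFβ1 was between -0.51 (*Mmp9*, SE 1.0) and 1.72 (*Mmp13*, SE 1.31). *Mmp2*, whose product takes part in activating latent TGFβ1, gave 0.51 (SE 0.453, adjusted *P* = 0.919), from 842.0±308.8 to 1196±297.5 CPM. In WWP2-/- cells the members other than *Mmp12* were between -0.20 (*Mmp11*, SE 0.523) and 1.88 (*Mmp9*, SE 0.987). The interaction of genotype and TGFβ1 was called for 0 of 10 members and 0% of all genes by edgeR and for 10 genes and 0 members by DESeq2, with 1 member and 1424 genes at an unadjusted *P* under 0.05. That member was *Mmp12* (3.61, SE 1.24, adjusted *P* = 0.549).

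Across the 20 libraries, the members fell into sets of like pattern on the log2 CPM scale. These correlations describe libraries that share groups, *Xist* class and the 2 cultures low in *Acta2*, and are given without a test, with the value over the 18 other libraries in second place. *Mmp11* was most like *Mmp23* (Pearson's *r*=0.929 and 0.931) and *Mmp14* (0.866 and 0.866), and *Mmp14* was also like *Mmp23* (0.859 and 0.859). *Mmp10* and *Mmp13* went together (0.933 and 0.856), as did *Mmp3* and *Mmp19* (0.812 and 0.819). *Mmp2* ran against *Mmp10* (-0.872 and -0.600) and, without the 2 libraries, more against *Mmp12* (-0.463 and -0.826).

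**Figure D5:**
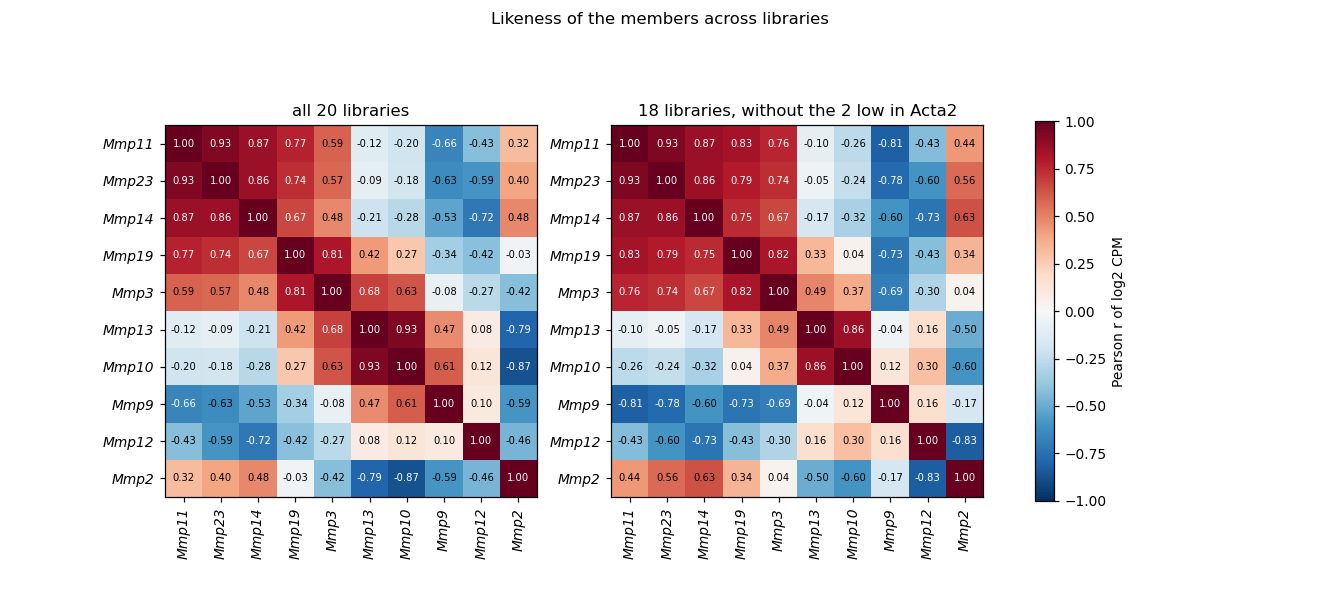
Pearson's *r* of log2 CPM between the 10 genes over all 20 libraries (left) and over 18 libraries without the 2 low in *Acta2* (right), from blue (negative) to red (positive). *Mmp11*, *Mmp23* and *Mmp14* form a block with *r* of at least 0.859 in both panels, whereas *r* of *Mmp2* with *Mmp10* goes from -0.872 to -0.600.

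The genes most like each member among all tested genes with a mean of at least 1 CPM were taken by the same measure over the 20 libraries. For *Mmp12* they were *Clec4d* (0.981), *Il7r* (0.977) and *Cd68* (0.976), and *Cd68* is a lysosomal marker of macrophages. For *Mmp2* they were *Tmeff2* (0.964), the matrix protein gene *Sparc* (0.963) and *Vav2* (0.956). *Mmp11* was followed most closely by *Thra* (0.977), *Radil* (0.976) and *Tcea3* (0.975), *Mmp14* by *Cygb* (0.971), *Hhat* (0.971) and *Itsn1* (0.968), and *Mmp23* by *Phactr1* (0.965), *Chrd* (0.959) and *Grk5* (0.956). For *Mmp13* they were *Cd274* (0.951), *H2-Q6* (0.949) and *Nlrc5* (0.944), a T-cell checkpoint ligand, a class I histocompatibility gene and a regulator of such genes.

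*Mmp10* was nearest to *Ifi209* (0.967), *Brinp3* (0.962) and *Ash2l* (0.961). *Mmp3* was nearest to *Ms4a4d* (0.967), *Trim30d* (0.967) and *Xdh* (0.964). The remaining members were nearest to *Wipf1* (0.969), *Mr1* (0.942) and *Vps26b* (0.937) for *Mmp19*, and to *Fam78b* (0.951), *Mtfr1* (0.944) and *Cd40* (0.938) for *Mmp9*. Over the 18 libraries, the lowest of these 30 values was 0.852, for *Mmp10* and *Ash2l*.

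Of the 13 other metalloproteinase genes of the family, 9 could be tested, and 1 passed with TGFβ1, *Mmp28*, which encodes epilysin. It was at 12.8±0.607 CPM in treated WT and 6.09±1.34 CPM in treated WWP2-/- cells (log2 fold change -1.07, SE 0.230, adjusted *P* = 0.0141). The median of the 9 was 0.60, beside 0.05 over all genes tested. None of them passed in untreated cells. *Mmp28* was not called with *Xist* as a covariate, where *Mmp1b* was higher instead. Without the 2 libraries low in *Acta2*, *Mmp28*, *Mmp1b* and *Mmp17* were called lower and *Mmp15* higher with TGFβ1, and *Mmp28* lower and *Mmp16* and *Mmp17* higher untreated.

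Among the inhibitors, 1 of 5 tested genes passed with TGFβ1 and none untreated. *Reck*, a membrane-anchored inhibitor of several members, was at 81.9±26.7 CPM in treated WT and 18.6±7.36 CPM in treated WWP2-/- cells (-2.14, SE 0.418, adjusted *P* = 0.0115). *Timp1* gave 0.73 (SE 0.288, adjusted *P* = 0.13), *Timp2* -0.82 (SE 0.250, adjusted *P* = 0.0574) and *Timp3* -1.05 (SE 0.697, adjusted *P* = 0.372). *Reck* passed also with *Xist* as a covariate and without the 2 libraries low in *Acta2*. The median of the list was -1.05 with TGFβ1 and -1.11 untreated.

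Among 11 tested genes of proenzyme activation, *Pcsk6*, a convertase of the furin family, was lower with TGFβ1 (50.7±15.5 against 6.99±3.58 CPM, -2.86, SE 0.617, adjusted *P* = 0.0141). *Pcsk6* was also lower in untreated cells (-2.75, SE 0.614, adjusted *P* = 0.0446), where it was the only one of the 11. With *Xist* as a covariate it passed with TGFβ1 but not untreated, and with the replicate number as a block its untreated call was lost as well. Both calls remained without the 2 libraries low in *Acta2*. The list had a median of 0.15 with TGFβ1.

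Among 14 factors known to act on metalloproteinase promoters, *Jun*, the partner of FOS proteins in AP-1, was the only gene to pass with TGFβ1. It was at 65.1±13.4 CPM in treated WT and 134.8±15.2 CPM in treated WWP2-/- cells (1.05, SE 0.217, adjusted *P* = 0.0129), and none of the 14 passed untreated (median 0.31 with TGFβ1 and 0.33 untreated). *Jun* passed also with *Xist* as a covariate and without the 2 libraries low in *Acta2*. Of 15 inducers and their receptors, the cytokine *Il1a* (3.18, SE 0.871, adjusted *P* = 0.0379) and the growth factor *Areg* (3.05, SE 0.71, adjusted *P* = 0.0187) were higher and the TNF receptor *Tnfrsf1a* lower (-0.67, SE 0.158, adjusted *P* = 0.0206) with TGFβ1. Both ligands were rare, with means of 2.02±1.81 CPM for *Il1a* and 1.38±0.755 CPM for *Areg* in treated WWP2-/- cells. With *Xist* as a covariate *Areg* passed and *Il1a* and *Tnfrsf1a* did not, *Il1b* and *Lif* being called instead, and *Il1a* was also lost with the replicate block. All 3 calls remained without the 2 libraries low in *Acta2*. The median over the inducers was 1.48 with TGFβ1 and 0.53 untreated, where none passed.

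Of 11 other collagen-degrading proteases and uptake receptors, 2 were lower with TGFβ1 and none differed untreated. *Mrc2*, the receptor that takes up collagen fragments, was at 961.7±429.6 against 252.2±125.3 CPM (-1.93, SE 0.540, adjusted *P* = 0.0416). *Fap*, the fibroblast activation protein, was at 36.2±20.9 against 0.580±0.688 CPM (-5.96, SE 1.32, adjusted *P* = 0.0157), and WT replicate 3, without *Xist*, had 0.020 CPM. Neither passed with *Xist* as a covariate, both passed without the 2 libraries low in *Acta2*, and *Mrc2* was lost with the replicate block. Among 12 genes of the TGFβ1 response, *Col1a1* and *Postn* were lower in treated WWP2-/- cells, and no gene of any of these lists passed for TGFβ1 itself or for the interaction. Of the marker lists for cell types, the fibroblast genes *Col1a1* and *Col1a2*, 2 of 5 endothelial genes (*Kdr* and *Tek*, in a list with a median of 0.40) and the podocyte gene *Wt1* were lower in treated WWP2-/- cells, and *Tek* was lower in untreated ones. Of these genes and *Postn*, only *Wt1* was called with *Xist* as a covariate. All were called without the 2 libraries low in *Acta2*, and with the replicate block only *Col1a2* and, with TGFβ1, *Tek* were.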

How the data were processed

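The deposited table holds counts of poly-A RNA-seq reads per gene in 20 libraries, which the authors aligned to GRCm38 (mm10) with STAR and counted on exons with featureCounts, without normalization. The fit kept genes reaching 5 counts in 5 or more libraries. Names, positions and exon lengths come from GENCODE M21. With R 4.3.3, edgeR 4.0.16 (TMM, glmQLFit, glmQLFTest) was fitted to all libraries in 4 groups, and *P* values were adjusted by Benjamini–Hochberg over the genes tested. SE is the log2 fold change over the square root of F. CPM are TMM-normalized, and correlations use log2 CPM with a prior count of 2. The members and gene lists were chosen with earlier results of these data known, and all members are named in every comparison. Alternatives were DESeq2 1.42.0 (size factors, Wald test), other count filters, the replicate block, *Xist* as a covariate, only the groups compared, and each library left out. Leaving out the 2 libraries low in *Acta2* was chosen after seeing the data. The procedure was tested on simulated data. The result of 1 listed gene is not reported here. No 2 libraries of the same group agreed within sampling noise, and pairs across groups were not compared.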

Additional observations from a re-analysis of the deposited data

Results flagged for a closer look

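In 14 of the 40 sets of 5 libraries, 1 per member and group, 1 library stood apart by Dixon's criterion of a gap above 0.71 of the range. Chance gives about 1 in 20 for independent sets of normally distributed values. These sets share their libraries and were taken on the linear CPM scale. The share over all genes was not computed, so the count cannot be read as particular to these genes. Untreated WWP2-/- replicate 3 stood apart for 5 members, with 435.2 CPM of *Mmp3* (others 1.15 to 69.2), 17.3 CPM of *Mmp9* (1.05 to 3.43), 103.7 CPM of *Mmp10* (1.53 to 17.1), 90.5 CPM of *Mmp11* (35.2 to 48.2) and 348.8 CPM of *Mmp13* (4.73 to 56.5). WWP2-/- with TGFβ1 replicate 1 stood apart for 4, with 737.7 CPM of *Mmp3* (0.121 to 1.76), 136.6 CPM of *Mmp10* (0.565 to 4.44), 80.0 CPM of *Mmp11* (37.0 to 40.0) and 633.7 CPM of *Mmp13* (2.28 to 30.9). Untreated WT replicate 4 was high for *Mmp9* (2.17 CPM, others 0.185 to 0.460), *Mmp10* (4.41 CPM, 1.02 to 1.45) and *Mmp13* (19.9 CPM, 5.56 to 7.39). The others were WT with TGFβ1 replicate 3 for *Mmp2* (1725 CPM, 1027 to 1095) and untreated WWP2-/- replicate 2 for *Mmp12* (374.6 CPM, 45.1 to 137.7). The first 2 libraries named are those low in *Acta2*, and both WT libraries are those without *Xist*. What sets these libraries apart was not tested.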

How the results depend on the processing

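With TGFβ1, the count of members that differed between genotypes, 3 in the analysis reported, was 1 with *Xist* as a covariate (*Mmp9*), 6 by the Wald test of DESeq2 (*Mmp9*, *Mmp10*, *Mmp11*, *Mmp12*, *Mmp14* and *Mmp23*), 6 without the 2 WWP2-/- libraries low in *Acta2*, and between 3 and 5 when each library was left out, with 5 without WT replicate 3 or WWP2-/- replicate 1. The count over all genes moved too, from 1238 in the analysis reported to 2702 and 2036 on these omissions, in that order. On the other omissions it was between 464 and 1220. In untreated cells, where it was 1, the count was 0 with *Xist* as a covariate, 0 with only the groups compared, 2 by DESeq2 (*Mmp10* and *Mmp11*) and between 0 and 2 when each library was left out. Omission of WT replicate 4 gave 2, of WWP2-/- replicate 3 gave 1, and of any of the other 8 gave 0. Over all genes, 148 passed in the analysis reported, 744 and 55 on the omissions named, and between 1 and 69 on the other 8. With only the groups compared, 1 gene passed. DESeq2 size factors and the other count filters left the counts of both comparisons at 3 and 1, although a filter of 10 counts in every library left 9 members to test. For TGFβ1 in either genotype and for the interaction, the count was 0 under all alternatives run. *Mmp9* with TGFβ1 passed under every alternative run.

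The replicate number did not pair the libraries in a consistent way. Deviations of same-numbered libraries correlated between -0.522 and 0.443. Of 5 WT untreated libraries 1 correlated best with its own number among the treated ones, against 0 of 5 in WWP2-/- cells. Between genotypes this held for 3 of 5 untreated and 0 of 5 treated libraries. Whether libraries are paired under other numbers was not tested, and the main fit took no pairing into account. With the replicate block the count was 3 with TGFβ1 and 0 untreated (*Mmp11* -2.72, adjusted *P* = 0.119). Over all genes, 670 passed with TGFβ1 and 1 untreated in these fits. *Mmp3* with TGFβ1 changed sign with the replicate block (-3.46), on omission of the first treated WWP2-/- library (-5.82, against values of up to 1.41 on omission of any other), and on omission of both libraries low in *Acta2* (-5.82). The cause of the changes with the test and the block was not tested.

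All members had at least 5 counts in every library, but some counts were low. *Mmp3* fell to 6 counts in a treated WWP2-/- library, and *Mmp9* had between 10 and 45 counts in treated WT libraries. Further limits are the 2 WT libraries without *Xist*, the 3 WWP2-/- libraries with it, and the 2 libraries low in *Acta2*. These fix how far genotype, sex of the cells and culture state can be separated.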
